A study of Drosophila melanogaster with 21 samples.

Results

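The regulators of somatic sex and of female tract identity were followed before and after mating in the female lower reproductive tract of the fly Drosophila melanogaster. Probe sets, groups of short array oligonucleotides that read a transcript together, were taken when their annotated gene symbol, current or as a synonym, was 1 of 10 names: tra, tra2, dsx, fru, ix, her, Hr39, lz, abd-A and Abd-B. Of these 10 genes 8 were measured, by 11 of 13966 probe sets that stand for 10843 named genes. Of the 11, 4 read fru and each of the other 7 genes had 1; abd-A and Abd-B were not analysed here.

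The samples were 21 single-colour arrays. Each was hybridised with RNA from a pool of 12 to 40 tracts, comprising the upper uterus with the organs that store sperm and the accessory glands, from females aged 3 days and held at 23 C. Unmated females gave 5 arrays, females dissected as mating ended (0 h) gave 6, and females taken 3 h, 6 h and 24 h later gave 4, 3 and 3. The labels name no strain or genotype, so the groups differ in mating and time alone as far as they say. A pool holds many cell types, and fewer cells of a type cannot be told apart from less RNA per cell. The p-values below measure only the spread between these pools, part of which may be technical.

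In Drosophila the switch gene Sxl, active in females, directs the splicing of tra. The Tra protein, together with Tra2, then directs the splicing of dsx and of fru, so that dsx yields a female protein that acts with the cofactor Ix on genes such as those of the yolk proteins. Hr39 and lz are needed to form the spermathecae, which store sperm, and the parovaria, the accessory glands of this tract, while Hox genes of the abdomen such as Abd-B set the identity of the segments it grows from. Since tra, dsx and fru act through sex-specific splice forms, a probe set gives the sum of the forms its oligonucleotides match, and those forms are not given in the sources at hand.

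Markers of the labelled tissue were present. Send1, a protease of the spermathecal secretory cells, had a geometric mean signal of 8665 over the 21 arrays, and Send2 rose from 67.0 in unmated females to 9930 at 3 h; Gld, another spermathecal gene, was below the array median on 18 arrays. Signals are linear intensities on arrays that share a 2% trimmed mean, and array medians ran from 35.6 to 57.7. One array stood apart, replicate 3 of the 6 h group, which had that lowest median and a summed signal of 5 epithelial markers of 94.1, against 180 to 1260 on the other 20 arrays. Replicate 6 of the 0 h group carried a sum of 32500 over 9 eggshell and vitelline membrane genes of ovarian follicle cells, against 727 to 1430 on the others. The array numbers in the labels form 6 blocks parted by gaps of more than 20. What a block stands for is stated nowhere, and no block holds unmated females together with females at 0 h or 6 h. Within blocks, residuals of the fit correlated by 0.311.

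None of the 11 probe sets passed the test between unmated females and any time after mating. The test was limma's moderated test on log2 signal, adjusted over all 13966 probe sets at a threshold of 0.05. The share of all probe sets called was itself low, with 0% for the 0 h pools, 0.115% after 3 h, 1.84% after 6 h and 0% after 24 h. Between neighbouring times no regulator passed either, where 0.0644% of all probe sets did from 0 h to 3 h, 0.451% from 3 h to 6 h and 0.0358% from 6 h to 24 h. The moderated F test over the 5 groups called 0.344% of probe sets and no regulator. At an unadjusted p below 0.05 there were no regulators at 0 h, 3 h and 24 h and 2 of 11 at 6 h, dsx and lz, beside 17.7% of all probe sets at 6 h. The same 2 did so from 3 h to 6 h and from 6 h to 24 h, and none from 0 h to 3 h, beside 11.7%, 6.75% and 6.9% of all probe sets. The median log2 difference from unmated females over the 11 was -0.17 for the 0 h pools, -0.07 after 3 h, -0.23 after 6 h and 0.06 after 24 h. Over all probe sets these medians were -0.10, -0.14, -0.21 and -0.10. The 11 therefore sat close to the array as a whole at 0 h, 3 h and 6 h, with dsx and lz far below the rest at 6 h.

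**Figure D1:**
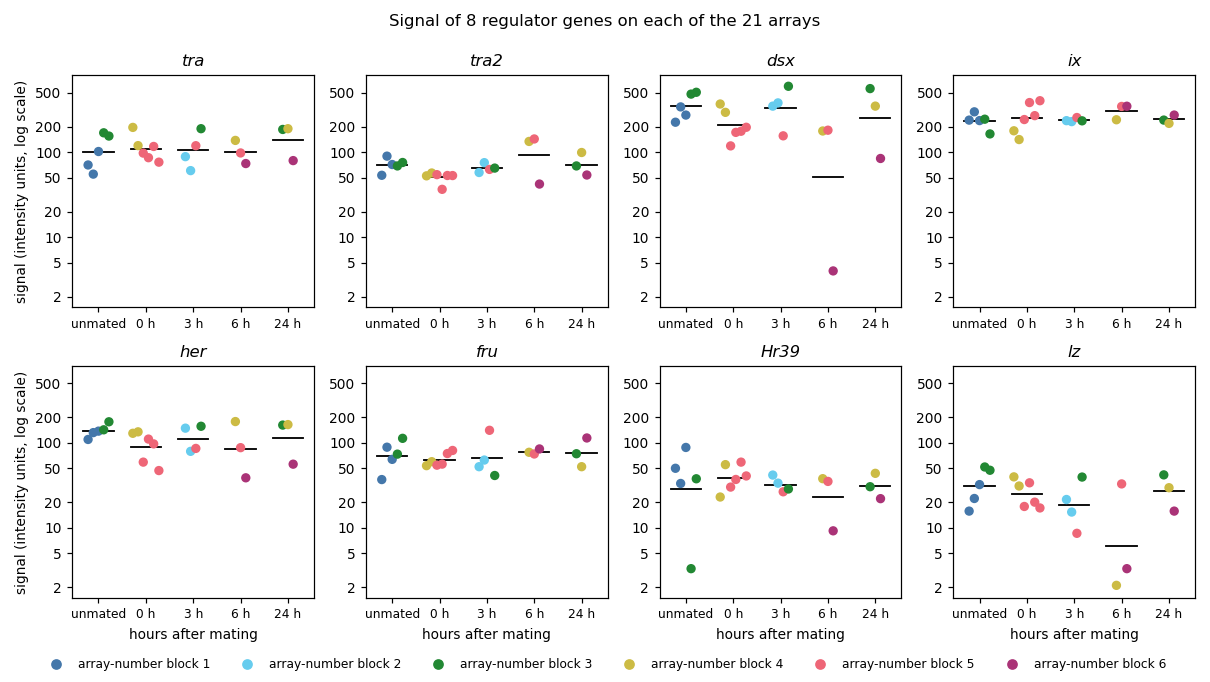
Signal of the 8 measured genes (vertical axis, intensity units on a log scale) on each array by group; fru is shown by its brightest probe set, colours mark the array-number block and black lines the geometric mean of a group. The lowest points of dsx and lz lie in the 6 h group, where dsx read 4.0 on 1 array and lz 2.1 and 3.3 on 2.

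**Figure D2:**
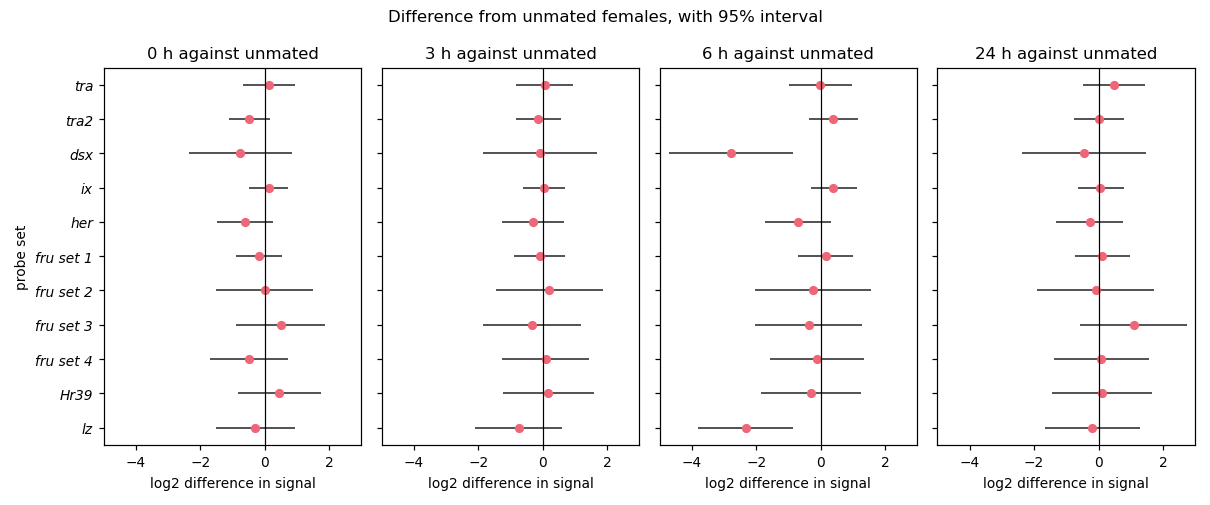
Log2 difference in signal between each mated group and unmated females for the 11 probe sets, with the 95% interval of limma's fit; fru sets 1 to 4 are in order of falling mean signal. Only the intervals of dsx (-4.68 to -0.89) and lz (-3.78 to -0.89) at 6 h leave out 0, before adjustment over all probe sets.

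The splicing regulator tra read 70.6, 55.1, 101.7, 168.8 and 154.6 in the 5 unmated pools. At 0 h it ran from 76.2 over a median of 107.0 to 195.4. Later pools gave 88.5, 60.6, 119.0 and 188.7 at 3 h, then 137.4, 97.8 and 73.4 at 6 h, then 184.9, 188.7 and 79.5 at 24 h. All groups overlapped, and each held both high and low arrays. The largest difference from unmated females was 0.48 on the log2 scale at 24 h (SE 0.45, 95% interval -0.46 to 1.42, limma adjusted p = 0.845). At 6 h the difference was -0.02 with an interval of -0.96 to 0.93, and its sign turned under quantile normalization (0.13) and median centring (0.28).

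Its partner tra2, an RNA-binding protein that both sexes make, had its highest signals at 6 h. Unmated pools read 53.4, 89.7, 71.5, 68.8 and 75.5. Signals at 0 h were 36.5 at the lowest, 53.0 in the middle and 56.8 at the highest. The 0 h arrays lay below 4 of the 5 unmated ones, a difference of -0.49 (SE 0.29, limma adjusted p = 0.741). At 3 h the 4 pools gave 57.6, 75.2, 62.6 and 64.9, within the unmated range. At 6 h tra2 stood at 133.6 and 142.9 in replicates 1 and 2, the 2 highest signals of all 21 arrays, and at 42.1 in replicate 3, the second lowest. The 24 h pools read 68.8, 99 and 53.8, around the unmated range. The 6 h difference was 0.39 (SE 0.35, 95% interval -0.34 to 1.12, limma adjusted p = 0.598) with replicate 3 and 0.96 without it (adjusted p = 0.171).

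Germline transcripts were high on the same pair of 6 h arrays. The summed signal of 7 germline markers was 2010 in replicate 1, 1390 in replicate 2 and 479 in replicate 3 at 6 h, against 165 to 339 in unmated females. Of the 7, pgc, which keeps germ cell precursors transcriptionally silent, rose by 3.58 on the log2 scale at 6 h (limma adjusted p = 0.0279) and swa, an RNA localisation factor of the oocyte, by 4.40 (0.0195). All 7 had differences above 0, while 60.4% of all probe sets were below 0. The genes whose log2 signal ran closest to tra2 over the 21 arrays, among 5905 other genes brighter than the median probe set, were indra (Pearson r 0.81) and the cell cycle kinase gene Cdk2 (0.78). The part of germline RNA in the tra2 signal was not tested. On 0 h replicate 6, where the germline sum was 873, tra2 read 53.0, near the middle of its group.

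**Figure D3:**
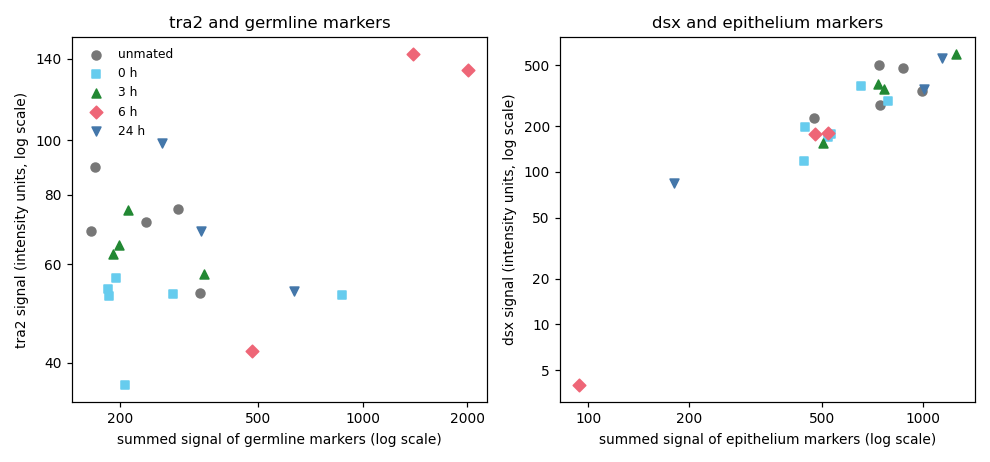
Left, tra2 signal on each array against the summed signal of 7 germline markers; right, dsx signal against the summed signal of 5 epithelial markers; all axes are intensity on a log scale and symbols mark the groups. The 6 h replicates 1 and 2 are at the top right for tra2 (133.6 and 142.9), and 6 h replicate 3 is at the bottom left for dsx (4.0, marker sum 94.1).

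The transcription factor gene dsx, the last step of the somatic pathway, was above the array median on 20 of 21 arrays. In unmated females dsx read 224.9, 340.6, 273.0, 481.7 and 506.2. The 0 h pools ran from 118.4 through a median of 186.1 to 368.4. Of these 6, 4 lay below every unmated pool, while the other 2 lay within their range. Signals at 3 h were 347.7, 379.7, 155.5 and 595.6. The 6 h pools gave 177.3, 181.2 and 4.0, and the 24 h pools 559.4, 348.0 and 84.2. All 3 of the 6 h values were below all 5 unmated ones, but 2 of them lay within the 0 h range, and the third, on replicate 3, was at 0.11 of its array's median signal. The 6 h group differed from unmated females by -2.79 (SE 0.91, 95% interval -4.68 to -0.89, limma adjusted p = 0.111). Without 6 h replicate 3 it was -0.96 (adjusted p = 0.552), and with array-number block as a term -1.36 (adjusted p = 0.652).

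Epithelial markers were low on the arrays where dsx was lowest. At 6 h, 4 of 5 epithelial genes (crb, cora, Nrx-IV and sinu) were between -1.39 and -2.32 on the log2 scale and shg was at 0.12; none of the 5 was called. On replicate 3 of the 6 h group, where dsx read 4.0, their sum was 94.1, and on replicate 3 of the 24 h group, where dsx read 84.2, it was 180. The remaining 19 arrays had sums from 441 to 1260. Some other cell types read low there too, with sums of 2050 and 3160 for 5 fat body markers against 4960 to 10500 on the remaining arrays. Those of 7 hemocyte markers were 2040 and 2910, against 3400 to 6200, and those of 7 neuronal markers 153 and 266, against 246 to 731. Not all did, with 21000 and 18600 for 6 muscle markers (14100 to 35700 in unmated females) and 479 and 632 for 7 germline markers (165 to 339). Sums of 9 follicle cell markers were 924 and 1430 (727 to 1420 in unmated females) and of 12 male markers 325 and 357 (251 to 361). Those of 3 spermathecal markers were 18900 and 7100 (8420 to 24100). The genes nearest to dsx over the 21 arrays were smash (r 0.98), which encodes a junction protein of epithelial cells, and kis (0.97), a chromatin remodeller of the trithorax group. Without 6 h replicate 3, where smash read 1.8 and kis 3.4, both remained close (r 0.92 and 0.89). The part of epithelial or other cells' RNA in the dsx signal was not tested.

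The second branch gene, fru, codes for transcription factors known for male courtship circuits and is read by 4 probe sets. The brightest one gave 36.9, 88.7, 63.8, 73.5 and 112.8 in unmated females. It ranged from 53.8 to 81.2 at 0 h (median 58.0). At 3 h it read 52.3, 62.6, 140.2 and 41.2. The 6 h values, 77.3, 73.8 and 84.6, and the 24 h values, 74.3, 52.3 and 113.9, lay inside the unmated range apart from the last. Its 6 h difference was 0.16 (SE 0.39, 95% interval -0.67 to 0.98, limma adjusted p = 0.880). The other 3 fru probe sets were below the array median on 19, 18 and 10 of the 21 arrays, with signals from 4.3 to 132.4. Correlations between the brightest set and these 3 were, in the same order, 0.18, 0.09 and 0.01, so the 4 sets did not give a common pattern. The widest difference among the dim sets was 1.09 at 24 h, with an interval of -0.53 to 2.72 (limma adjusted p = 0.770).

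The cofactor gene ix, which encodes a Mediator subunit that works with the female Dsx protein, had the narrowest spread of the 11 probe sets (SD 0.37 on the log2 scale over 21 arrays). Unmated pools read 238.1, 298.0, 235.0, 244.1 and 163.8. At 0 h its lowest, median and highest signals were 140.6, 255.2 and 402.7. Values at 3 h were 234.6, 228.6, 255.4 and 233.5, the tightest set of any regulator (SD 0.07 on the log2 scale). At 6 h it read 240.4, 344.8 and 346.9, and at 24 h 238.3, 217.9 and 273.1. The 6 h difference, 0.40 (SE 0.33, 95% interval -0.28 to 1.09, limma adjusted p = 0.555), rested on replicates 2 and 3, which were above all unmated pools, while replicate 1 was within them.

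The zinc finger gene her, which acts on the pathway upstream of and beside tra, read 109.4, 131.7, 137.1, 142.1 and 176.6 in unmated females. From 0 h pools came a lowest signal of 47.1, a median of 103.8 and a highest of 134.5. At 3 h the values were 148.6, 79.3, 85.8 and 156.4. The single highest her signal of the 21 arrays, 177.7, and the lowest, 38.7, both came from the 6 h group, whose remaining pool read 87.6. The 24 h pools gave 161.5, 163.7 and 56.0. Against unmated females the differences were -0.62 at 0 h (SE 0.40, limma adjusted p = 0.769) and -0.71 at 6 h (SE 0.48, 95% interval -1.71 to 0.30, adjusted p = 0.466). The 6 h value was -0.14 without replicate 3 and -1.24 without replicate 1.

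Of the genes that shape the sperm-storage organs, Hr39, an orphan nuclear receptor, was dim. It lay below the array median on 18 of 21 arrays. Its unmated pools read 50.1, 33.2, 88.1, 3.3 and 37.7, and so included both the highest and the lowest signal of the series. The 0 h pools spanned 23.0 to 59.2 with a median of 38.8. Later signals were 41.7, 33.5, 26.5 and 28.6 at 3 h, 37.8, 35.1 and 9.2 at 6 h, and 30.4, 43.7 and 22.0 at 24 h. The 6 h difference was -0.30 (SE 0.73, 95% interval -1.82 to 1.22, limma adjusted p = 0.875). With 1 array left out it ran from -1.07, without unmated replicate 4, to 0.36, without 6 h replicate 3, and it passed in none of these fits. Whether a probe set was detected above background is not given in the file, so a low signal here is a reading and not an absence.

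The Runx factor gene lz was below the array median on all 21 arrays. Unmated pools gave 15.7, 22.1, 32.2, 51.9 and 47.5. The 0 h range was 17.1 to 39.7 around a median of 25.5. At 3 h lz read 21.5, 15.3, 8.6 and 39.5. The 6 h values were 2.1, 32.8 and 3.3, so that replicates 1 and 3 held the 2 lowest lz signals of the series and replicate 2 lay inside the unmated range. By 24 h it read 41.9, 29.6 and 15.7. The 6 h group differed from unmated females by -2.33 (SE 0.69, 95% interval -3.78 to -0.89, limma adjusted p = 0.0829). Leaving out 6 h replicate 2 gave -3.55 with an adjusted p of 0.00793, and leaving out replicate 1 gave -1.56 with an adjusted p of 0.297. With 16 added to each signal before the logarithm, the difference shrank to -0.89 (adjusted p = 0.157).

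Within blocks the 6 h pools of lz pointed both ways. In block 4 the 6 h pool read 2.1 and its 2 neighbours at 0 h 39.7 and 31.0, a difference of -4.06. In block 5 the 6 h pool lay 0.62 above the mean of 4 pools at 0 h. Block 6 gave 3.3 at 6 h and 15.7 at 24 h, so 2 of 3 blocks with a 6 h pool had it as their lowest lz array. Each of these within-block values rests on 1 array at 6 h. The closest genes to lz were mtg (r 0.79) and CG30046 (0.77).

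Across the series, tra, her and dsx followed the block of array numbers more than the time after mating. Blocks accounted for 80.4% of the sum of squares of log2 signal of tra, 77.5% of her, 76.3% of dsx and 56.2% of ix, while the 5 groups accounted for 8.21%, 17.1%, 37.5% and 12.4%. The blocks share arrays with the groups, so the shares do not add up. Among the brighter probe sets the medians were 54.0% for block and 24.3% for group, and over all probe sets 41.2% and 22.4%. A larger share for block than for group was thus typical of the array. For tra2, lz and the third fru set the order was turned, with 18.1%, 36.2% and 15.0% for block and 36.4%, 42.6% and 19.9% for group. A moderated F test of block with group in the model, added after the data were seen, called tra (adjusted p = 0.0150), her (0.0275) and dsx (0.00795). These were 3 of 11 regulators, where 16.7% of all probe sets were called. Without block 6 the count was 1 of 11, beside 6.54% of all probe sets, with dsx at 0.0435, tra at 0.0538 and her at 0.230. The her call was also lost under quantile normalization (0.0525) and without any 1 of 5 arrays, among them 6 h replicate 3 (0.106), and Hr39 was called as well without unmated replicate 5 (0.00972).

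Block 3, with 2 unmated pools and 1 each at 3 h and 24 h, was high for these genes. There tra ran from 154.6 to 188.7, her from 142.1 to 176.6 and dsx from 481.7 to 595.6. Block 4 was nearly as high for tra (geometric mean 157, against 174 in block 3) and her (150 against 159), but not for dsx (286 against 534). In block 5, mostly 0 h pools, dsx ran from 118.4 to 196.1, and in block 6 it read 4.0 and 84.2. For dsx, blocks 3 and 5 did not overlap, though both held a 3 h pool (595.6 and 155.5). Within block 3 the 3 h pool exceeded the unmated mean by 0.27 and the 24 h pool by 0.18. The 6 h pool was 0.89 below the 0 h mean in block 4 and 0.16 above it in block 5. The 24 h pool exceeded the 6 h pool by 4.40 in block 6. Between blocks 4 and 5 ix ran opposite to tra, with geometric means of 190 in block 4 and 310 in block 5.

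**Figure D4:**
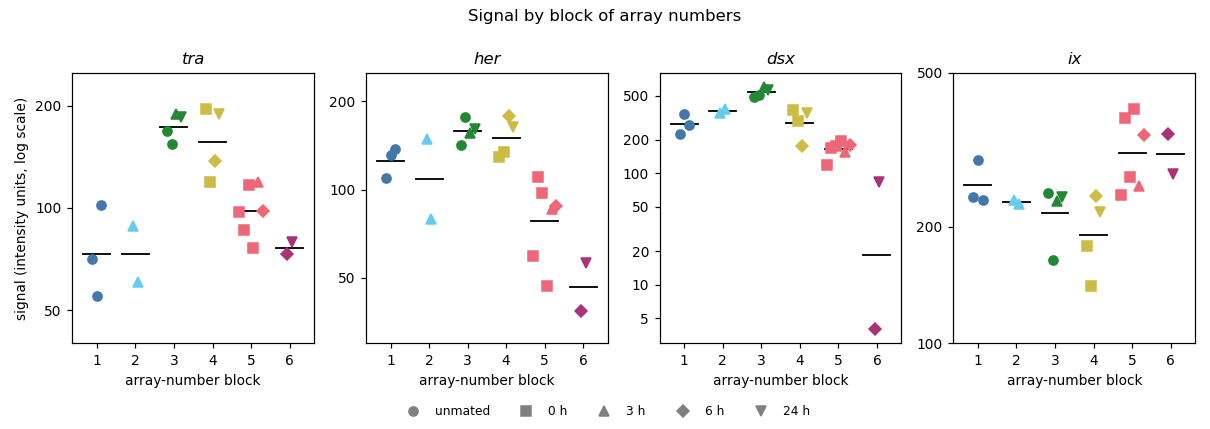
Signal of tra, her, dsx and ix (vertical axes, intensity on a log scale, each with its own range) by array-number block; symbols mark the groups and black lines the geometric mean of a block. Pools of block 3 are high for tra, her and dsx whatever their group, and block 4 is nearly as high for tra and her. The dsx signal is lowest in block 6 (4.0 and 84.2), and ix is higher in block 5 (geometric mean 310) than in block 4 (190).

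The balance of signal between the 3' and 5' ends of control transcripts moved with the blocks too. A higher ratio means relatively more signal from the 3' end, and it is not a direct measure of RNA integrity. The log2 ratio of 3' to 5' readings, taken from control transcripts, averaged 5.36 in block 3, between 2.16 and 4.53 in the other 5, and lowest in block 6. As a description over 21 arrays that share blocks, log2 dsx correlated with this ratio by 0.62, her by 0.61, tra by 0.53 and ix by -0.53. With block means removed these values were 0.26, 0.07, -0.20 and -0.04. For lz the correlation was 0.51, and 0.42 with block means removed; for the second fru set it was -0.51 and -0.48. The share of this ratio in the block pattern was not tested. The nearest genes to tra were Alg13 (r 0.82) and Drp1 (0.82), and to her the kinesin light chain gene Klc (0.92) and Kap-alpha3 (0.91). Block accounted for 90.7%, 70.8%, 87.1% and 84.7% of these 4. Those nearest to ix were CG9717 (0.82) and CG32547 (0.78), to fru ppk3 (0.68) and Or46a (0.68), and to Hr39 TH1 (0.84) and H (0.82).

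The genes around the regulators were read through lists of 5 to 17 measured genes. No list gene was called against unmated females at 0 h, 3 h or 24 h in the 9 pathway lists, and at 6 h 4 of 88 were, where 1.84% of all probe sets were called. By limma's unadjusted p below 0.05 the counts were 9 for the 0 h pools, 8 after 3 h, 15 after 6 h and 6 after 24 h, against 7.43%, 7.64%, 17.7% and 7.85% of all probe sets. Among 10 genes upstream of tra, which include her, emc was lower and no gene was higher; emc encodes a helix-loop-helix inhibitor of the factors that switch on Sxl. It read 1346.5, 1844.9, 1719.5, 1191.7 and 1350.5 in unmated females and 487.6, 807.9 and 78.7 at 6 h. The groups did not overlap, with a difference of -2.23 (SE 0.54, limma adjusted p = 0.0368). Without 6 h replicate 3 this was -1.23 (adjusted p = 0.205), and with block as a term -1.11 (0.518). At 6 h 10 of the 10 differences in the list were below 0, as were 60.4% of all probe sets; with median centring, which moved the median of all probe sets from -0.21 to 0.09, these were 8 of 10 and 45.2%. The list median was -0.54, and -0.25 after centring. Sxl itself was at -0.60 (SE 0.97), with 90.6% of its sum of squares between blocks.

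Of 6 splicing factors that act with Tra and Tra2, none was called in any comparison with unmated females (2 at an unadjusted p below 0.05 at 6 h), and at 6 h they lay between -0.58 (Rsf1) and 1.00 (U2af38). Among 9 genes regulated by dsx none was called either. Without adjustment Obp99b passed for the 0 h pools and after 6 h, and bab1 and Obp99a after 24 h. The 3 yolk protein genes had geometric means over all arrays of 26250 for Yp1, 24259 for Yp2 and 21730 for Yp3. Their differences from unmated females were between -0.45 and 0.11 at every time. At 6 h Obp99b was at 1.57 (SE 0.50, limma adjusted p = 0.103) and bab1, a regulator of abdominal pigmentation, at -1.06 (SE 0.97). At 24 h 8 of the 9 differences were below 0, beside 57.3% of all probe sets, and the list median was -0.23. The lowest was that of bab1, -2.23 (SE 0.97, limma adjusted p = 0.605).

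In the dosage compensation list, 1 of 6 genes was called at 6 h, where Unr, an RNA-binding protein that works with Sxl to block msl-2 translation in females, fell by 2.52 on the log2 scale (SE 0.50, limma adjusted p = 0.0164). It read 38.3, 36.2, 53.3, 31.2 and 48.2 in unmated females and 3.0, 11.3 and 10.6 at 6 h, below the array median on 19 of 21 arrays. Low signals were not confined to 6 h, as Unr ran from 9.7 to 35.7 at 0 h and from 10.6 to 23.1 at 24 h. Both ranges overlapped the 6 h values, while the 3 h pools ran from 17.3 to 56.0. Without adjustment Unr passed at 0 h and 24 h too. Leaving out 6 h replicate 1 took the adjusted p to 0.0712, and block as a term took it to 0.354. The difference was -1.25 with 16 added to each signal (0.0162).

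Of 15 Polycomb and trithorax genes, which keep Hox genes silent or active, 1 was higher at 6 h. This was esc, a core part of a histone-methylating complex, with 92.0, 73.9 and 99.2 at 6 h against 4.4 to 22.0 in unmated females. Its difference was 3.25 (SE 0.54, limma adjusted p = 0.00590) and 3.17 without 6 h replicate 3, and with block as a term it was 1.99 (adjusted p = 0.512). In the 6 h pools esc had a high signal on all 3 arrays. Their germline sums were 2010, 1390 and 479, against 165 to 339 in unmated females. On 0 h replicate 6 the germline sum was 873 and esc read 17.6, and on 24 h replicate 3 these were 632 and 15.7. Both sums were above that of 6 h replicate 3, where esc read 99.2. The part of germline RNA in the esc signal was not tested. The other 14 were not called. Of the 15 differences 12 were below 0, and 10 with median centring, beside 60.4% and 45.2% of all probe sets.

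Among 15 genes that pattern the genital disc, the larval source of the tract, en fell and none rose. The segment polarity factor en read 24.1, 62.4, 38.2, 24.6 and 75.5 in unmated females and 4.4, 5.8 and 3.6 at 6 h, a difference of -3.16 (SE 0.60, limma adjusted p = 0.0111). Unmated and 6 h pools were fully apart, but en was below the array median on 18 of 21 arrays. Its limma adjusted p was 0.0540 without 6 h replicate 3 and 0.325 with block as a term (a difference of -3.01). Lower signals were already present before 6 h, with 5.2 to 25.8 at 0 h and 9.1 to 34.3 at 3 h. Without adjustment en passed at both of these times, and at 24 h it ran from 11.1 to 65.6. No gene was called among 5 genes of a Hox list (pb, Dfd, Scr, Antp and cad), 17 nuclear receptors and 5 Runx genes and partners. The last 2 lists held Hr39 and lz. The abdominal Hox genes Ubx, abd-A and Abd-B and the Hox cofactors exd and hth were not analysed here. The Hox list therefore does not cover the Hox genes of the abdomen. At 6 h cad, lz and no nuclear receptor passed without adjustment. The posterior identity gene cad had a geometric mean of 6.94 in unmated females and 134 at 6 h, a difference of 4.27 (SE 1.12, limma adjusted p = 0.0559). It passed without adjustment after 3 h and 24 h as well. The median 6 h difference was -0.23 in the Hox list, -0.29 in the nuclear receptors and -0.19 in the Runx list, beside -0.21 over all probe sets. It was -0.64 in the genital disc list, -0.60 in the Polycomb and trithorax list, -0.41 in dosage compensation, -0.09 in the dsx targets and 0.20 in the splicing factors; with median centring the splicing factors stood at 0.49, the dsx targets at 0.20, the Hox list at 0.06 and the Runx list at 0.10. At 6 h, 3 of 7 neuronal markers were also called lower, beside 1.84% of all probe sets called in either direction. The falls were 3.34 for elav, 2.40 for nSyb and 3.72 for Syn on the log2 scale (limma adjusted p from 0.0111 to 0.0384). All 3 were dim at 6 h, with signals from 0.9 to 6.2. At 0 h, where no neuronal marker was called, elav already read 2.1 to 16.5 and Syn 1.2 to 23.6. The part of neuronal RNA in the differences of emc, Unr and en was not tested.

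**Figure D5:**
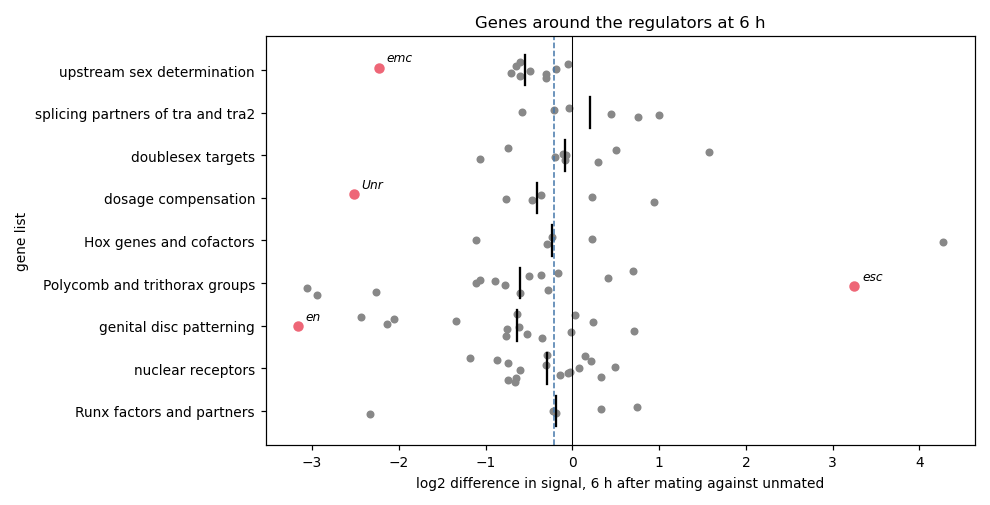
Log2 difference at 6 h against unmated females for each gene of 9 lists (grey points; red where the adjusted p passed the threshold), with the list median as a black bar and the median of all probe sets, -0.21, as a dashed line. The red points are emc (-2.23), Unr (-2.52), esc (3.25) and en (-3.16).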

How the data were processed

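The authors deposited linear intensity per probe set for 21 single-colour arrays. Per the submitters' processing notes RMA was used, with no version given, but the values lack its form: they are linear, and arrays share a 2% trimmed mean and not their quartiles. The probe summary and genome build are not given in the sources used here. From there, log2 was taken with no pseudocount and no scaling. After 44 control probe sets were left out, 13966 were tested. Symbols came from the platform annotation, updated by gene identifier through RefSeq's Release 6 annotation; 12442 probe sets had 1 symbol, 327 several and 1197 none. limma 3.58.1 in R 4.3.3 fitted group means over all arrays, with 2-sided tests and Benjamini-Hochberg adjustment per comparison at 0.05. The procedure was tested on simulated arrays with independent noise and no block effect, so that test cannot show how blocks affect the p-values. Groups came from the labels, replicate numbers from sample order.

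All probe sets of the members were named. Of each list, up to 3 called genes with the smallest p per comparison were named, and for each member the 2 genes of highest Pearson r; other list genes were named after their values were seen. A gene stands for its brightest probe set. The members and lists were chosen with earlier results of these data known. The number of arrays limits the precision.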

Additional observations from a re-analysis of the deposited data

Results flagged for a closer look

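In 33 groups of 4 to 6 arrays, taken over the 11 probe sets, 1 array lay far from the rest of its group. It was tra2 in replicate 4 of the 0 h group, which read 36.5 while the other 5 read 52.6 to 56.8, a gap of 0.826 of the range of log2 signal. Chance alone sets about 1 in 20 groups apart by this measure.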

How the results depend on the processing

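No paired analysis was possible because replicate numbers were given in sample order and pair no arrays. With each array left out in turn, the count of regulators called ranged from 0 to 1 at 6 h against unmated females and from 0 to 1 at 6 h against 3 h, where lz passed without 6 h replicate 2. The count called between array-number blocks was 3, from 2 to 4 with 1 array left out, 2 with quantile normalization and 1 without block 6. Under 12 other settings and the left-out arrays, 1764 values of single probe sets were recomputed, and in comparisons with unmated females and the F test over groups no other call changed; 111 uncalled differences, none above 0.49 in size at first, turned sign. A block term cannot be told apart from much of the group effect, as blocks 1 and 2 hold 1 group each.

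Counts over all probe sets moved more. At 6 h against unmated females 257 became 507 with 16 added, 427 without the dimmer probe sets or with a variance trend, 392 with the 3' to 5' ratio as covariate, 347 with median centring, 130 without block 6, 65 with block as a random and 5 as a fixed term, 60 in the groups compared alone, and 95 to 398 with 1 array left out (95 without 6 h replicate 3). At 6 h against 3 h, 63 ran from 3 to 142 over these settings. Array weights moved 16 to 72 at 3 h, 0 to 7 at 24 h, 9 to 138 from 0 h to 3 h, 5 to 13 from 6 h to 24 h, and 48 to 284 in the F test. The fixed block gave 2 at 0 h and 10 at 24 h, where 0 were called. The causes were not tested. Median centring moved the median of all probe sets at 6 h from -0.21 to 0.09 and quantile normalization to 0.02; dsx was then at -2.49 and -2.69, lz at -2.04 and -1.91, and tra2 at 0.68 and 0.62. The alternatives were chosen with earlier results known, the block test after its values were seen. Dim signals, such as those of lz, Hr39 and 3 fru probe sets, limit the rest.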
